A study of Mus musculus with 15 samples.

Results

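Kinesins are motor proteins that use ATP to walk along microtubules or to take them apart, and the genes of the family were followed here in the mouse, through the normal choroid plexus and its papillomas and carcinomas. The members are the genes whose symbol has the form Kif or Kifc with a number and, for some, a letter, among the probe sets that were paired with exactly 1 gene symbol. The rule found 41 of the 22180 genes measured, and no measured value entered it. By their known roles 14 were put in a mitotic list, 9 in a ciliary list, 7 in a neuronal list and 11 in a list of general cargo carriers and other members. Earlier results of these data were known when the members and lists were chosen.

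In a dividing cell, kinesins slide the poles of the spindle apart, move chromosomes to its middle, trim microtubule ends and help to cut the daughter cells apart, and most of their genes are transcribed late in the cell cycle. In a cilium, the heterotrimeric kinesin-2 carries the trains of intraflagellar transport towards the tip, and other members act in the axoneme of motile cilia. The epithelium of the choroid plexus, which makes cerebrospinal fluid, bears tufts of cilia on its surface. Neuronal kinesins haul vesicles, mitochondria and receptors along axons and dendrites.

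All animals were of mixed C57Bl/6 and 129 background and carried the Myc alleles in the form given as Myc/Myc. Normal tissue came from Myc/Myc; p53fl/fl mice, whose genotype names no Cre. Carcinomas came from mice of the genotype Atoh1-Cre; Myc/Myc; p53fl/fl, and papillomas from Atoh1-Cre; Myc/Myc mice, for which no floxed p53 allele is listed. Normal and carcinoma animals therefore differ in the Cre, normal and papilloma animals in the Cre and in the p53 allele, and papilloma and carcinoma animals in the p53 allele. The Cre is named after Atoh1, a gene of neural progenitors, and which cells it acted in was not measured. Tumour-bearing mice were killed when they showed signs of a tumour, and the ages are not given. The labels give 5 samples a group, from different mice, and each was hybridised to its own array. Normal arrays 2 to 5 were high both for Xist, the RNA of the inactive X chromosome (10.69 to 12.48), and for the Y-linked gene Eif2s3y (7.89 to 9.34), whereas each tumour array was high for 1 of the 2 alone. Whether those normal samples hold tissue of more than 1 animal was not tested.

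Values are log2 RMA values, so a difference of 1 is a 2-fold difference in signal, and the median of an array lay between 6.79 and 6.90. A gene is said to have risen or fallen where limma's Benjamini-Hochberg adjusted p, taken over all 22180 genes, was under 0.05. In the check of the label, the mean of 9 genes of choroid plexus epithelium was 12.88 to 12.95 in normal arrays, 12.37 to 12.64 in papillomas and 12.36 to 12.62 in carcinomas, so these markers were bright in every array. Of the 9, 4 fell in carcinomas and 5 in papillomas, where 19.2% and 16.3% of all genes fell. Lmx1a alone rose, in carcinomas. Myc was at 7.65 ± 0.09 (SD, n = 5) in normal tissue, 8.26 ± 0.17 in papillomas and 8.46 ± 0.34 in carcinomas, and it rose in both tumours. Comparisons of each tumour with normal tissue share the 5 normal arrays. In bulk tissue, fewer cells of a type and less RNA per cell cannot be told apart.

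The kinesin family split by role in both tumours. Against normal tissue, 13 of the 41 genes rose and 17 fell in carcinomas, where 37.9% of all genes were called, 18.7% higher and 19.2% lower. In papillomas 11 rose and 13 fell, where 33.2% of all genes were called, 17% higher and 16.3% lower. Every kinesin gene that rose in either comparison was on the mitotic list, and no gene of that list fell. Under other settings 4 genes of the other lists passed as higher in a tumour, as given below for Kif5c, Kif7, Kif2a and Kif26a. Carcinomas stood above papillomas for 11 kinesin genes and below them for 5, where 11.4% of all genes were called, 6.24% higher and 5.17% lower. The median difference over the 41 genes was -0.21 in carcinomas and -0.06 in papillomas, beside -0.02 and 0.01 over all genes. When each array was shifted to a common median, the papilloma count became 14 higher and 11 lower, and Kif5c (0.61, adjusted p = 0.0372) and Kif7 (0.23, adjusted p = 0.0394) were among the higher genes.

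Across the family, 11 genes rose in both tumours, 12 fell in both and 9 were called in no comparison, and no gene rose in one tumour and fell in the other. Under quantile normalization, and without carcinoma 3, Kif5c did pass in opposite directions, higher in papillomas and lower in carcinomas. The arrays of carcinomas and normal tissue did not overlap at all for 27 of the 41 genes, beside 29.9% of all genes. For papillomas against normal tissue the count was 24, beside 32.1%, and for carcinomas against papillomas it was 14, beside 7.9%. In brightness, 23 of the 41 genes lay above the array median in all 15 arrays and 2, Kif2b and Kifc1, lay below it in all. Kif14, Kif15 and Kif20b lay below it in every normal array and every papilloma. Kif18a, Kif22, Kif23, Kif2c and Kif4 lay below it in every normal array, and Kif27 in every papilloma. Differences that involve such dim values may be compressed.

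**Figure D1:**
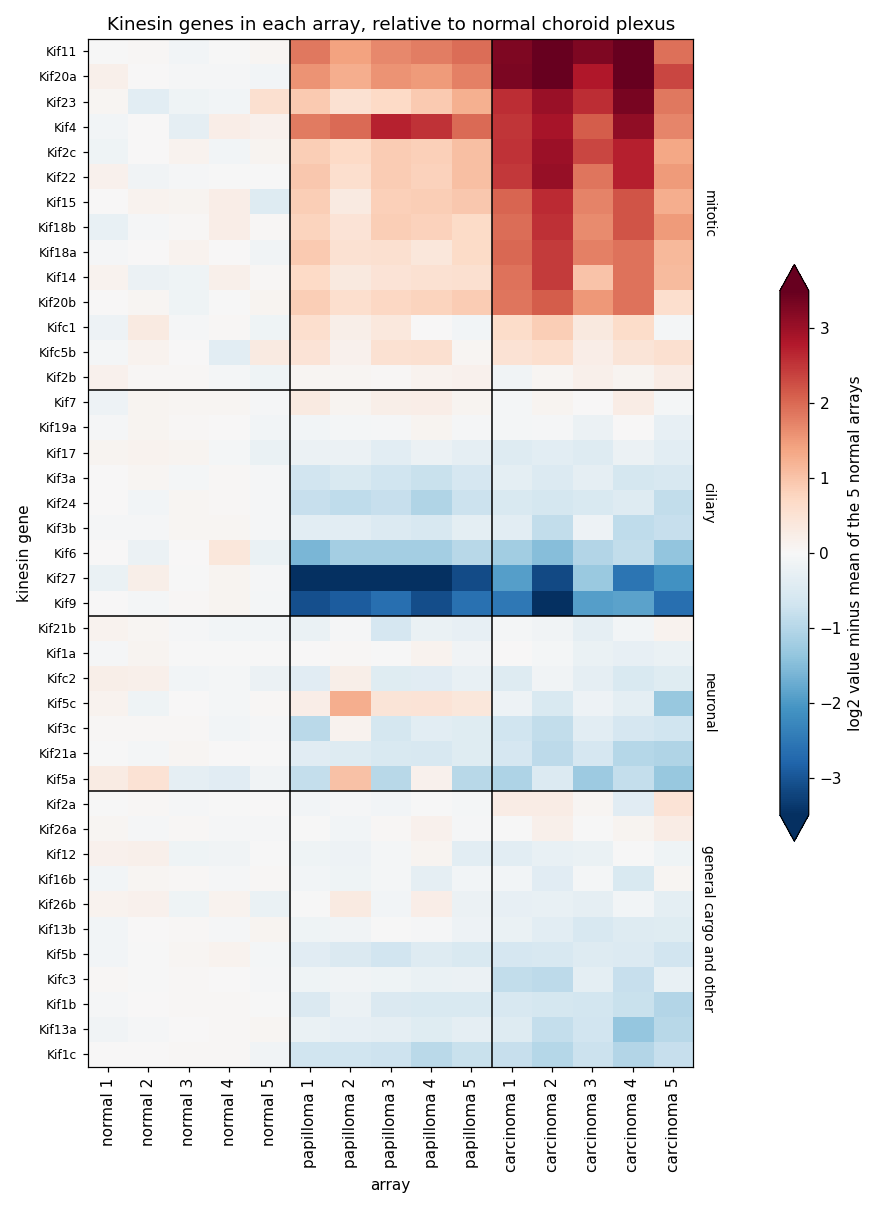
Each row is a kinesin gene and each column an array; the colour is the log2 value minus the mean of the 5 normal arrays, red for higher and blue for lower, and it saturates at the ends of the scale. The mitotic block is red in the tumours and deepest in carcinomas, while Kif27 and Kif9 in the ciliary block are the deepest blue.

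The mitotic kinesins rose in both tumours, further in carcinomas than in papillomas. In carcinomas 13 of the 14 rose, with a median difference of 1.97 over the list, and 11 rose at least 2-fold, as 4.41% of all genes did. In papillomas 11 of the 14 rose, with a median of 0.76, and 3 of them, Kif11, Kif20a and Kif4, rose at least 2-fold, as 3.44% of all genes did. Carcinomas were above papillomas for 10 of the 14, with a median of 1.23 beside -0.03 over all genes, and for 9 of these by at least 2-fold, as 1.35% of all genes were. The proliferation markers moved with them: 12 of 12 rose in carcinomas, 10 of 12 in papillomas, and 12 of 12 were higher in carcinomas than in papillomas. Over all genes 18.7%, 17% and 6.24% were higher in these comparisons. The mean of those 12 markers was 7.51 to 7.69 in normal arrays, 8.53 to 8.92 in papillomas and 9.58 to 10.55 in carcinomas, and their summed level was 90.14 to 92.33, 102.37 to 107.01 and 115.01 to 126.58. The part that the number of dividing cells has in the kinesin values was not tested.

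Many genes of mitosis carry near their start a short element called CHR, with the letters TTTGAA or TTTAAA, which the cell-cycle complexes built on MuvB bind, often downstream of CCAAT boxes bound by NF-Y. The RefSeq promoter table (GRCm38.p6), which runs from 250 bases before to 50 after each annotated start, held windows for 33 of the 41 kinesin genes. With both strands read, TTTGAA stood in the window of 11 of 13 mitotic genes, against 1 of 8 ciliary, 1 of 4 neuronal and 1 of 8 general cargo genes, and in 17.9% of all 32851 windows. TTTAAA stood in 2 of the 13, Kif14 and Kif2c, which also hold TTTGAA, and in 13.2% of all windows. CCAAT stood in 9 of the 13 mitotic genes, 5 of 8 ciliary, 0 of 4 neuronal and 2 of 8 general cargo genes, and in 37.4% of all windows. No match of one of these motifs overlapped a match of another. Within 50 bases of the start on either side, a span chosen after the matches were seen, TTTGAA stood in 9 of the 13 mitotic genes, in 2 of the 20 other kinesin genes and in 4.94% of all windows.

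Stretches of 150 bases around the start, 120 before and 30 after it, are shown for 5 mitotic kinesins that rose in both tumours, because the CHR and CCAAT letters sit close together in them. They are written 5′ to 3′ along the gene, with capitals for TTTGAA and CCAAT on either strand, so that TTCAAA and ATTGG are the same motifs on the other strand. The positions on GRCm38.p6 are chr19:37376262-37376411 (plus strand) for Kif11, chr11:102925095-102925244 (minus) for Kif18b, chr7:127042391-127042540 (minus) for Kif22, chr9:61946770-61946919 (minus) for Kif23 and chrX:100625945-100626094 (plus) for Kif4.
Kif11: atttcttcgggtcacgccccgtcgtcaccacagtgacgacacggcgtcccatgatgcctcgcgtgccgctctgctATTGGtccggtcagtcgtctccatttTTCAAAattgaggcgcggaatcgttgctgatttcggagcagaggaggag
Kif18b: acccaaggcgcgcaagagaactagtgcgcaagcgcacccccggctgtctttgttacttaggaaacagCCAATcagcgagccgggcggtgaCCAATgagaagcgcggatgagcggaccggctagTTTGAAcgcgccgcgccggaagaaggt
Kif22: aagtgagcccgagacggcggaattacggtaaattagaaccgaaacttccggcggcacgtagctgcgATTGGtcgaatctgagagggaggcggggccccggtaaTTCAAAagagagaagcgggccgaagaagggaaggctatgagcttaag
Kif23: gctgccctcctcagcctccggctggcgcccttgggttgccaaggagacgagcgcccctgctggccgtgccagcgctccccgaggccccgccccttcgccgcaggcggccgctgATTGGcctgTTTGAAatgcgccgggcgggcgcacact
Kif4: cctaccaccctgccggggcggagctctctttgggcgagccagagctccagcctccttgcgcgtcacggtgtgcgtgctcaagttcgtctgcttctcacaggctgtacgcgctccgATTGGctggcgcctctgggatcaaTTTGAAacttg
In all 5 stretches, which were picked for holding both motifs close together, at least 1 CCAAT box precedes the CHR letters. Kif15, Kif20b and Kif2c held TTTGAA but no CCAAT in their windows. A match of letters is a description and not a binding site shown in this tissue. Kif18a, which rose in both tumours as well, held neither motif in its window.

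Among the spindle builders, Kif11 (probe set 17359020), the tetrameric motor that pushes the poles apart, had the largest carcinoma difference of the family. Its values were 6.81, 6.87, 6.73, 6.79 and 6.89 in normal arrays 1 to 5, 8.66, 8.23, 8.49, 8.60 and 8.76 in papillomas and 10.10, 10.75, 10.09, 10.81 and 8.76 in carcinomas. All tumours lay above all normal arrays, 4 carcinomas lay above all papillomas, and carcinoma 5 was at the level of the highest papilloma. The gene rose by 3.28 (SE 0.28, limma adjusted p = 1.46e-07) in carcinomas, 9.74-fold, and by 1.73 (SE 0.28, adjusted p = 0.000135) in papillomas. Carcinomas exceeded papillomas by 1.55 (SE 0.28, limma adjusted p = 0.00202), and by 1.89 (adjusted p = 3.69e-06) without carcinoma 5. Kif15, which can stand in for Kif11 in holding the spindle open, rose by 1.97 in carcinomas (adjusted p = 1.34e-06) and 0.76 in papillomas (adjusted p = 0.00902).

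Kifc1, the minus-end-directed motor that bundles microtubules and clusters surplus centrosomes, rose by only 0.49 in carcinomas (SE 0.17, limma adjusted p = 0.0289). Its near-identical copy Kifc5b rose by 0.46 in carcinomas (adjusted p = 0.00976) and 0.36 in papillomas (adjusted p = 0.0419). Kifc1 was below the array median in all 15 arrays, and how the probes of these 2 copies share their transcripts is unknown, so both values are uncertain. The Kifc1 call ended when normal array 1, 3 or 5 or carcinoma array 1, 2 or 4 was left out, at differences of 0.39 to 0.48 with adjusted p from 0.055 to 0.0808. The papilloma call of Kifc5b ended without normal 1, 3 or 4, carcinoma 1 or papilloma 1, 3 or 4, at 0.27 to 0.36, and with the replicate block (adjusted p = 0.0881).

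The kinesins of the spindle midzone and of cytokinesis rose in carcinomas. Kif20a (probe set 17349433), which brings the chromosomal passenger complex to the central spindle, read 7.02, 6.88, 6.82, 6.81 and 6.75 in normal arrays, 8.44, 8.12, 8.44, 8.36 and 8.61 in papillomas, and 10.16, 10.52, 9.66, 10.39 and 9.20 in carcinomas. The 3 groups did not overlap, with papillomas in between. The rise of Kif20a was 8.74-fold in carcinomas (log2 difference 3.13, SE 0.20, limma adjusted p = 5.33e-09) and 1.53 on the log2 scale in papillomas (adjusted p = 1.35e-05), and carcinomas exceeded papillomas by 1.59 (adjusted p = 0.000119). Kif23, the motor of the centralspindlin complex, rose 6.39-fold in carcinomas (log2 difference 2.68, SE 0.23, adjusted p = 2.03e-07). Its values were 6.15, 5.71, 5.92, 5.97 and 6.64 in normal arrays, 6.99, 6.63, 6.78, 6.99 and 7.32 in papillomas and 8.67, 9.11, 8.67, 9.41 and 7.93 in carcinomas. Normal array 5 reached the lowest papilloma, and every carcinoma lay above every papilloma. The carcinoma minus papilloma difference of Kif23, 1.82 (SE 0.23, limma adjusted p = 0.000178), was the largest between the tumours among the 41 genes.

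Kif14, which acts with the citron kinase in abscission, and Kif20b, which acts in late cytokinesis, rose in carcinomas too. Kif14 read 5.85 ± 0.16 (SD, n = 5) in normal tissue, 6.37 ± 0.13 in papillomas and 7.52 ± 0.61 in carcinomas. All its papillomas lay above all its normal arrays, by 0.52 on average, without passing the test (limma adjusted p = 0.0769, though it passed under 6 of the alternative settings), while the rise of 1.67 in carcinomas passed (adjusted p = 1.17e-05). Kif20b rose by 1.60 in carcinomas (adjusted p = 1.18e-05) and 0.77 in papillomas (adjusted p = 0.00847). The difference of 0.84 between its tumours (adjusted p = 0.0151) lost its call when only those 2 groups were fitted (adjusted p = 0.0672) and without papillomas 2 and 4 (adjusted p = 0.0798).

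Kif4 (probe set 17536566), a chromosome-bound motor that also sets the length of the midzone, had nearly the same level in both tumours. Its values were 5.75, 5.86, 5.52, 6.06 and 6.00 in normal arrays, 7.66, 7.82, 8.52, 8.38 and 7.82 in papillomas and 8.34, 8.72, 7.97, 8.93 and 7.56 in carcinomas. Every tumour lay above every normal array. The tumours overlapped in part, with carcinomas 2 and 4 above every papilloma and carcinoma 5 just below every papilloma. The rise was 2.47 (SE 0.23, limma adjusted p = 4.56e-07) in carcinomas and 2.20 (SE 0.23, adjusted p = 1.85e-06) in papillomas, and the difference of 0.26 between them was not called (SE 0.23, adjusted p = 0.539). The papilloma difference of Kif4 was 89.3% of its carcinoma difference on the log2 scale. For the 9 genes that rose in both tumours and were higher in carcinomas this share lay between 32.1% (Kif23) and 52.7% (Kif11). Such shares may be distorted where values lie below the array median. The papillomas highest for Kif4, arrays 3 and 4, were also those with high Xist, at 11.79 and 12.03 against 6.00 to 6.66 in the other papillomas. Carcinomas did not repeat this order, since arrays 1 and 4, with low Xist, read 8.34 and 8.93 for Kif4, and arrays 2, 3 and 5, with high Xist, read 8.72, 7.97 and 7.56. Kif4 lies on chromosome X, and the part of the animals' sex in its values was not tested. The related pseudogene Kif4-ps, with a probe set of its own, read 6.17 in normal tissue, 6.19 in papillomas and 6.15 in carcinomas, and passed no test.

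Of the chromosome movers and microtubule depolymerases on the mitotic list, all but Kif2b rose in both tumours. Kif2a, a depolymerase on the general cargo list, is given below. Kif22, which pushes chromosome arms away from the poles, rose by 2.32 (SE 0.22, limma adjusted p = 4.27e-07) in carcinomas and 0.86 (adjusted p = 0.00574) in papillomas. Kif2c, the depolymerase that corrects wrong attachments at kinetochores, rose by 2.39 (SE 0.22, limma adjusted p = 2.61e-07) and 0.86 (adjusted p = 0.00495). It read 6.36, 6.53, 6.65, 6.42 and 6.61 in normal arrays, 7.37, 7.22, 7.39, 7.33 and 7.57 in papillomas and 9.04, 9.52, 8.86, 9.24 and 7.88 in carcinomas, 3 levels without overlap. Kif18a, which damps the swinging of chromosomes, and Kif18b, which shortens astral microtubules, rose by 1.85 and 1.97 in carcinomas and by 0.62 and 0.72 in papillomas. Kif2b, a further depolymerase, was dim and read 6.52 ± 0.11 (SD, n = 5) in normal tissue, 6.62 ± 0.05 in papillomas and 6.62 ± 0.14 in carcinomas. No difference of Kif2b was called, and below the array median a small change would be compressed.

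**Figure D2:**
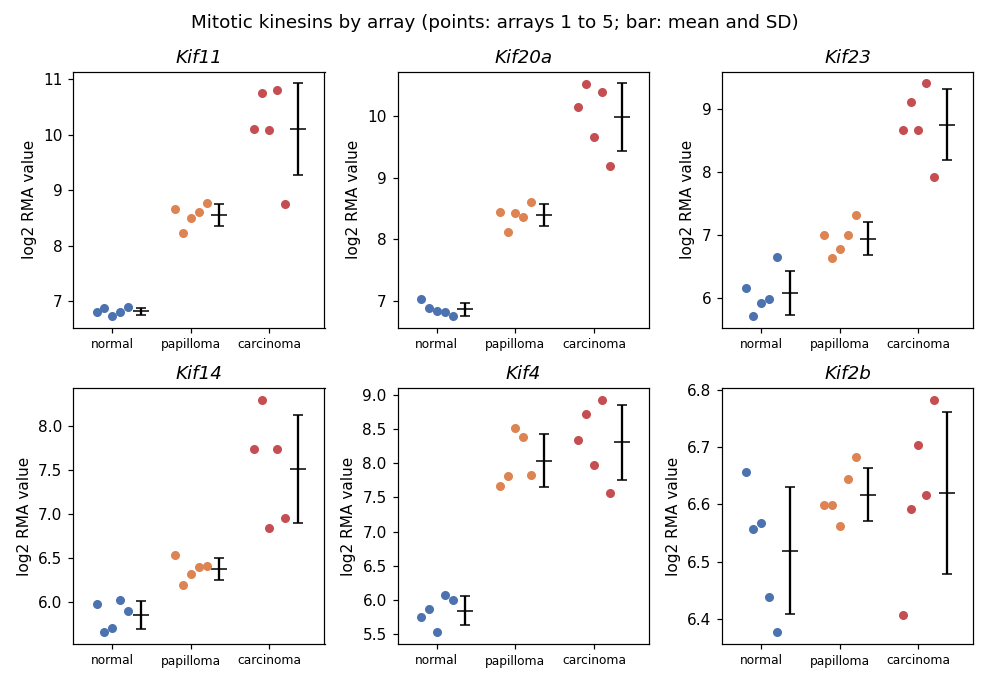
Log2 RMA values of 6 mitotic kinesins in each array (points, arrays 1 to 5 from left to right) with the mean and SD of each group; each panel has its own vertical scale. Kif11, Kif20a, Kif23 and Kif14 step up from normal to papilloma to carcinoma, Kif4 is at a like level in both tumours, and Kif2b stays between 6.38 and 6.78.

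The mitotic kinesins varied together among the carcinomas. Over the list the median SD was 0.14 in normal tissue, 0.18 in papillomas and 0.55 in carcinomas, beside 0.12, 0.15 and 0.19 over all genes. Carcinoma 2 was the highest carcinoma for 10 of the 14 genes and carcinoma 5 the lowest for 11. The list mean was 6.30 to 6.36 in normal arrays, 6.99 to 7.27 in papillomas and 7.55 to 8.71 in carcinomas, so the lowest carcinoma stood above the highest papilloma. The proliferation markers were also highest in carcinoma 2 and lowest in carcinoma 5. In papillomas the spread was narrow, with array 2 lowest for 9 of the 14 genes. Without carcinoma 5 the mitotic counts were again 13 in carcinomas, 11 in papillomas and 10 between the tumours.

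Most genes of the proteins that work with mitotic kinesins rose as well. Of 25 such genes measured, 23 rose in carcinomas and 22 in papillomas, with medians of 2.56 and 1.16, and 21 were higher in carcinomas than in papillomas. Over all genes 18.7%, 17% and 6.24% were higher in these comparisons. Cenpe, a kinesin of the kinetochore whose symbol lacks the Kif prefix, read 6.23 ± 0.11 (SD, n = 5), 7.07 ± 0.09 and 8.67 ± 0.58 in normal tissue, papillomas and carcinomas. It rose by 2.45 (limma adjusted p = 9.03e-08) in carcinomas and by 0.85 (adjusted p = 0.00336) in papillomas, close in size to Kif2c. Racgap1, the partner of Kif23 in centralspindlin, rose by 3.26 and 1.56. The list's largest differences were those of Ccnb2, a cyclin of mitotic entry (4.53), Mki67 (3.97) and Hmmr (3.57) in carcinomas. Between the tumours Prc1, the crosslinker of midzone microtubules that Kif4 and Kif20a bind, stood 1.96 higher in carcinomas, Plk1 1.86 and Anln 1.81. Psrc1, a microtubule-binding protein of the spindle, was the exception, at 7.15 ± 0.22 (SD, n = 5) in normal tissue, 11.12 ± 0.22 in papillomas and 8.93 ± 0.53 in carcinomas. It was 2.19 lower in carcinomas than in papillomas (log2 difference -2.19, limma adjusted p = 1.05e-05).

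The ciliary kinesins fell in both tumours to about the same extent. Of all genes, 19.2% fell and 18.7% rose in carcinomas, and 16.3% fell and 17% rose in papillomas. In carcinomas 7 of the 9 ciliary kinesins fell, with a median difference of -0.60, and in papillomas 7 of the 9 fell, with a median of -0.65. In each tumour 3 of them, Kif9, Kif27 and Kif6, fell at least 2-fold, as 4.45% of all genes did in carcinomas and 4% in papillomas. Of the 9, Kif27 alone differed between the tumours, and the median of that comparison was 0.05. Without carcinoma 2 the difference of Kif9 passed as well, at 0.64 (limma adjusted p = 0.0169) against 0.36 over all arrays. Kif24 passed without carcinoma 5 (0.32, adjusted p = 0.00971) and under 2 other settings, and Kif3a without carcinoma 4 (0.23, adjusted p = 0.0491) and with array quality weights. Of 15 markers of multiciliated cells, 10 fell and 3 rose in each tumour, the 3 being a share like that of all genes. Between the tumours 7 of the 15 were higher in carcinomas, as 6.24% of all genes were. The mean of the 15 markers was 9.61 to 9.79 in normal arrays, 7.66 to 7.76 in papillomas and 7.79 to 8.65 in carcinomas. Their summed level was 144.08 to 146.78, 114.94 to 116.35 and 116.81 to 129.75. The 3 markers that rose were Deup1 (3.42 in carcinomas and 2.13 in papillomas), Gmnc (1.40 and 0.93) and Mcidas (0.51 and 0.28). Mcidas and Ccno lay below the array median in all normal arrays, Ccno, Rsph4a and Dnah5 in all papillomas, and Dnah5 in all carcinomas. Ccno was called in no comparison. The part of the number of ciliated cells in the kinesin values was not tested.

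Kif9 (probe set 17522377), a motor of the central pair of motile axonemes, fell most of the family in carcinomas. It read 11.03, 10.95, 11.06, 11.13 and 10.95 in normal arrays, 7.96, 8.11, 8.37, 7.91 and 8.41 in papillomas and 8.53, 7.42, 9.09, 9.15 and 8.39 in carcinomas. No tumour came near a normal array, and the tumours overlapped, with carcinomas the more scattered. In papillomas the difference was -2.87 (SE 0.24, limma adjusted p = 1.59e-07), 7.33-fold, and in carcinomas it was -2.51 (SE 0.24, adjusted p = 5.87e-07), 5.69-fold.

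Kif27 (probe set 17293116), related to the Hedgehog regulator Kif7 and needed for the central apparatus of motile cilia, fell most of the family in papillomas. Its values were 9.46, 9.91, 9.69, 9.80 and 9.65 in normal arrays, 6.12, 6.04, 6.16, 5.90 and 6.59 in papillomas and 7.76, 6.54, 8.41, 7.15 and 7.58 in carcinomas. All tumours lay below all normal arrays, and 4 carcinomas lay above all papillomas, with carcinoma 2 just inside their range. The difference was -3.54 (SE 0.25, limma adjusted p = 2.24e-08) in papillomas and -2.22 (SE 0.25, adjusted p = 3.05e-06) in carcinomas, and carcinomas exceeded papillomas by 1.33 (SE 0.25, adjusted p = 0.0028), 2.51-fold. A dimmer probe set of Kif27 gave -0.37 in papillomas (limma adjusted p = 0.0123 when it stood for the gene), -0.25 in carcinomas (adjusted p = 0.0818) and 0.12 between the tumours (adjusted p = 0.529). That probe set read 6.74 in normal tissue, below the array medians, so of the calls of this gene the papilloma fall alone passed on both.

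Kif6, a motor of ependymal cilia, read 8.81, 8.60, 8.83, 9.21 and 8.58 in normal arrays, 7.20, 7.61, 7.61, 7.62 and 7.84 in papillomas and 7.60, 7.32, 7.79, 7.96 and 7.44 in carcinomas. The tumours shared a range well under the normal one, with differences of -1.23 (SE 0.15, limma adjusted p = 6.37e-06) and -1.19 (SE 0.15, adjusted p = 7.63e-06). Kif24, which acts at the mother centriole with Ccp110 to hold back cilia, differed by -0.86 (adjusted p = 5.03e-07) in papillomas and -0.60 (adjusted p = 1.75e-05) in carcinomas. It read 7.97 ± 0.06 (SD, n = 5) in normal tissue, 7.11 ± 0.11 in papillomas and 7.37 ± 0.15 in carcinomas, with every tumour below every normal array.

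The subunits of the heterotrimeric kinesin-2 fell less. Kif3a, shared by its motor pairs, read 9.71 ± 0.06 (SD, n = 5) in normal tissue, 9.05 ± 0.10 in papillomas and 9.24 ± 0.13 in carcinomas, with differences of -0.65 (limma adjusted p = 3.74e-06) and -0.47 (adjusted p = 9.55e-05). Kif3b, its partner in cilia, read 10.28 ± 0.06, 9.85 ± 0.09 and 9.65 ± 0.33, with differences of -0.43 (adjusted p = 0.0121) and -0.63 (limma adjusted p = 0.000608). Kifap3, the adaptor that joins these motors to cargo, read 9.49 ± 0.04, 8.97 ± 0.12 and 8.83 ± 0.13 and fell in both tumours too, with differences of -0.52 and -0.67. All tumours lay below all normal arrays for Kif3a and for Kif3b. The papilloma call of Kif3b ended without papillomas 2 and 4 (-0.40, limma adjusted p = 0.0538). Kif17, the homodimeric kinesin-2, differed by -0.26 in papillomas (adjusted p = 0.0169) and -0.37 in carcinomas (adjusted p = 0.00115). Neither Kif19a, which trims the tips of motile cilia, nor Kif7, which orders the tip of the primary cilium in Hedgehog signalling, was called. Kif19a differed by -0.12 in carcinomas and -0.03 in papillomas, and Kif7 by 0.05 and 0.18, the latter called under the common median and under quantile normalization (0.24, limma adjusted p = 0.0365). A second, dimmer probe set of Kif7 gave -0.15 in carcinomas and -0.10 in papillomas, neither of them called.

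**Figure D3:**
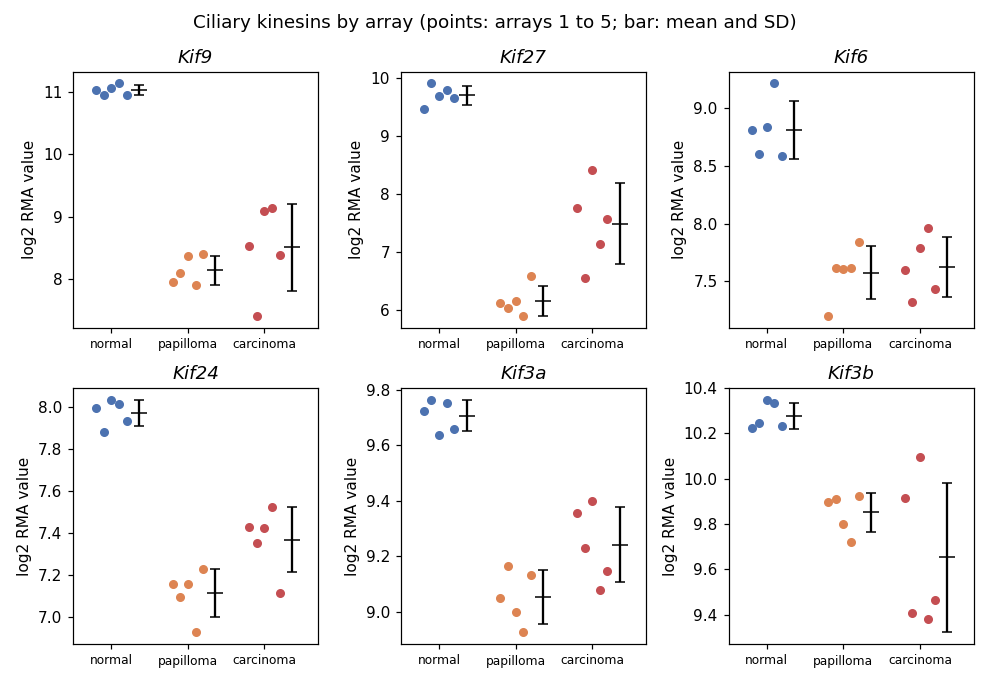
Log2 RMA values of 6 ciliary kinesins in each array (points, arrays 1 to 5 from left to right) with the mean and SD of each group; each panel has its own vertical scale. All tumours lie below all normal arrays in every panel, and Kif9 and Kif27 drop furthest.

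Among the carcinomas the ciliary list mean ran from 7.69 in array 2 to 8.21 in array 3, and the multiciliated marker mean was lowest and highest in the same arrays. The list mean was 8.77 to 8.95 in normal arrays and 7.71 to 7.90 in papillomas. Of 31 other genes of intraflagellar transport, the ciliary base and Hedgehog transduction, 20 fell and 1 rose in carcinomas, with a median of -0.61, and 21 fell and 3 rose in papillomas, with a median of -0.55. Of all genes, 19.2% fell and 18.7% rose in carcinomas, and 16.3% fell and 17% rose in papillomas. Hydin, a protein of the central pair, differed by -2.70 in carcinomas and -2.57 in papillomas. Ccp110, the partner of Kif24, differed by -1.40 and -1.42. Sufu, a repressor of the Hedgehog pathway, rose by 0.56 and 0.65. Between the tumours 3 of the 31 differed, a share like the 11.4% of all genes called there. All 3 were higher in carcinomas, as 6.24% of all genes were. They were Gli3 at 0.89 (limma adjusted p = 0.0405), Gli2 at 0.57 (adjusted p = 0.0315) and Ttc26 at 0.38 (adjusted p = 0.00203).

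Genes of cilia often hold an X-box, which RFX factors bind and whose repeated arm has the letters GTTGCC. With both strands read, these letters stood in the windows of 4 of 8 ciliary kinesin genes (Kif17, Kif24, Kif3a and Kif9), 2 of 13 mitotic, 2 of 4 neuronal and 2 of 8 general cargo genes, and in 12.5% of all windows. The stretches of Kif3a and Kif9, a cilium carrier and an axonemal motor that both fell, are chr11:53567249-53567398 and chr9:110476838-110476987 on GRCm38.p6, both plus strand, with GTTGCC in capitals.
Kif3a: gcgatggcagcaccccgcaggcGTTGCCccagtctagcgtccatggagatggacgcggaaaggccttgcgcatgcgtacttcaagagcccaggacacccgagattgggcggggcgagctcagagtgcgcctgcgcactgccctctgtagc
Kif9: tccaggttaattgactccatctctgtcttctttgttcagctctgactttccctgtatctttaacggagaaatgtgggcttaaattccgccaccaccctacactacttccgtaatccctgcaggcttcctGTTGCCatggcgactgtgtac
In Kif3a the letters lie before the annotated start. RefSeq gives 2 starts for Kif9, and the letters lie just after the one used here and before the other. The E-box CACGTG, which Myc binds, stood in none of the 13 mitotic windows, in the Kif1a window alone among the 33 genes and in 7.15% of all windows.

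Of the 7 neuronal kinesins none rose, 4 fell in carcinomas and 3 in papillomas, with median differences of -0.51 and -0.27, and 2 were lower in carcinomas than in papillomas, with a median of -0.19. Over all genes 19.2%, 16.3% and 5.17% were lower in these comparisons. Kif21a (probe set 17320614), which stops growth of microtubules near the membrane of axons, was the one that fell in every comparison. It read 9.84, 9.79, 9.91, 9.87 and 9.84 in normal arrays, 9.45, 9.41, 9.32, 9.30 and 9.44 in papillomas and 9.27, 8.94, 9.27, 8.84 and 8.79 in carcinomas. The 3 groups did not overlap and papillomas lay in between. The differences were -0.83 (SE 0.09, limma adjusted p = 2.67e-06) in carcinomas, -0.47 (SE 0.09, adjusted p = 0.00084) in papillomas and -0.36 (SE 0.09, adjusted p = 0.0193) between the tumours. The last of these lost its call with array quality weights (-0.25, adjusted p = 0.0785), when only those 2 groups were fitted (adjusted p = 0.0797) and without papillomas 2 and 4 (adjusted p = 0.0609).

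Papillomas 2 and 4 stood apart for neuron markers. The mean of 14 such markers was 9.49 and 8.69 in those arrays and 7.40 to 7.62 in the other 3 papillomas, beside 8.28 to 8.79 in normal arrays and 7.32 to 7.82 in carcinomas. The summed level of the list was 115.96 to 123.08 in normal arrays, 103.66 to 132.92 in papillomas and 102.42 to 109.43 in carcinomas. Of the 14, 6 fell in carcinomas, 2 in papillomas and 1 was lower in carcinomas than in papillomas, beside 19.2%, 16.3% and 5.17% of all genes. The papilloma count and the count between the tumours are shares like those of all genes. Nefm lay below the array median in all arrays of each group. Kif5a followed this split widely, at 8.03 to 8.91 in these 2 arrays against 6.90 to 7.03 in the other 3. Kif1a, Kif3c and Kif5c were also higher in both arrays than in the other 3, but only narrowly in 1 of the 2. Kif21a, Kif21b and Kifc2 overlapped between the 2 sets of papillomas. For some neuronal kinesins the values are also given without these 2 arrays, a choice made after the values were seen.

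Kif5a, the neuron-specific heavy chain of conventional kinesin, read 8.17, 8.38, 7.56, 7.48 and 7.75 in normal arrays, 7.03, 8.91, 6.90, 8.03 and 6.91 in papillomas and 6.78, 7.39, 6.59, 7.04 and 6.53 in carcinomas. Papilloma 2 lay above the normal range, papilloma 4 inside it, and the other 3 were among the carcinomas. Over all arrays the papilloma difference of -0.32 was not called (limma adjusted p = 0.548), and without papillomas 2 and 4 it was -0.93 (adjusted p = 0.00509). The carcinoma difference was -1.0 (SE 0.34, adjusted p = 0.0276), and that call ended without normal 1 or 2 or without carcinoma 1, 3 or 5, at -0.98 to -0.87 with adjusted p from 0.0523 to 0.0732.

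Kif5c, the other neuron-enriched heavy chain, was the only kinesin gene whose single call was between the tumours. It read 8.82, 8.55, 8.70, 8.62 and 8.73 in normal arrays, 8.90, 9.96, 9.15, 9.16 and 9.08 in papillomas and 8.51, 8.14, 8.52, 8.33 and 7.37 in carcinomas. Every papilloma lay above and every carcinoma below every normal array, with papilloma 2 and carcinoma 5 at the extremes. Carcinomas and papillomas differed by -1.08 (SE 0.21, limma adjusted p = 0.00363), 2.11-fold, where 0.753% of all genes were at least 2-fold lower, and by -0.87 (adjusted p = 0.0215) without papillomas 2 and 4. Against normal tissue neither the papilloma difference of 0.57 (adjusted p = 0.0503) nor the carcinoma difference of -0.51 (adjusted p = 0.0703) was called. Without papillomas 2 and 4 these became 0.36 (adjusted p = 0.225) and -0.51 (adjusted p = 0.0362). Of the 27 alternative settings, 9 called the papilloma rise and 5 the carcinoma fall. The rise was 0.59 (adjusted p = 0.00682) with array quality weights and 0.57 (adjusted p = 0.0108) without carcinoma 5. Quantile normalization called both (0.56, adjusted p = 0.0454, and -0.54, adjusted p = 0.0498), as did leaving out carcinoma 3 (adjusted p = 0.0496 and 0.0477).

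Kif3c, the kinesin-2 partner of Kif3a in neurons, read 8.68 ± 0.06 (SD, n = 5) in normal tissue, 8.24 ± 0.39 in papillomas and 8.05 ± 0.18 in carcinomas. Its differences were -0.45 (limma adjusted p = 0.0277) and -0.64 (adjusted p = 0.00251), and the papilloma value was -0.66 (adjusted p = 0.000855) without papillomas 2 and 4. The papilloma call ended without normal 1, 2 or 3 or papilloma 1 or 3, at -0.44 to -0.32, and under the common median (adjusted p = 0.0531). Kifc2, a minus-end-directed motor of dendrites and axons, fell in carcinomas (-0.37, adjusted p = 0.0271) and differed by -0.26 in papillomas (adjusted p = 0.136), or by -0.36 (adjusted p = 0.029) without papillomas 2 and 4. Its carcinoma call ended without normal 1 or 2 or carcinoma 1, 4 or 5, at -0.36 to -0.32, and under the common median (adjusted p = 0.0505). Kif21b fell in papillomas (-0.27, adjusted p = 0.0423), a call that ended when normal 1, 2 or 3, carcinoma 1 or papilloma 1, 3, 4 or 5 was left out, at -0.29 to -0.20. With all arrays kept it also ended under quantile normalization (adjusted p = 0.0723), the common median (adjusted p = 0.0858) and adjustment over all probe sets (adjusted p = 0.0602). Kif1a, the carrier of synaptic vesicle precursors, was bright and not called, with 11.44 to 11.66 in papillomas, 11.51 to 11.63 in normal arrays and 11.25 to 11.55 in carcinomas. Its carcinoma difference of -0.16 was called under quantile normalization (-0.21, limma adjusted p = 0.0206) and without carcinoma 1 (-0.20, adjusted p = 0.0316).

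The count of neuronal kinesins depended on single arrays. In carcinomas 4 fell, and 2 did without normal 1, normal 2 or carcinoma 5. In papillomas 3 fell, 1 without normal 1, 2 or 3 or papilloma 1 or 3, and 5 without papillomas 2 and 4 together. Between the tumours 2 were lower in carcinomas, and 1 without papillomas 2 and 4.

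**Figure D4:**
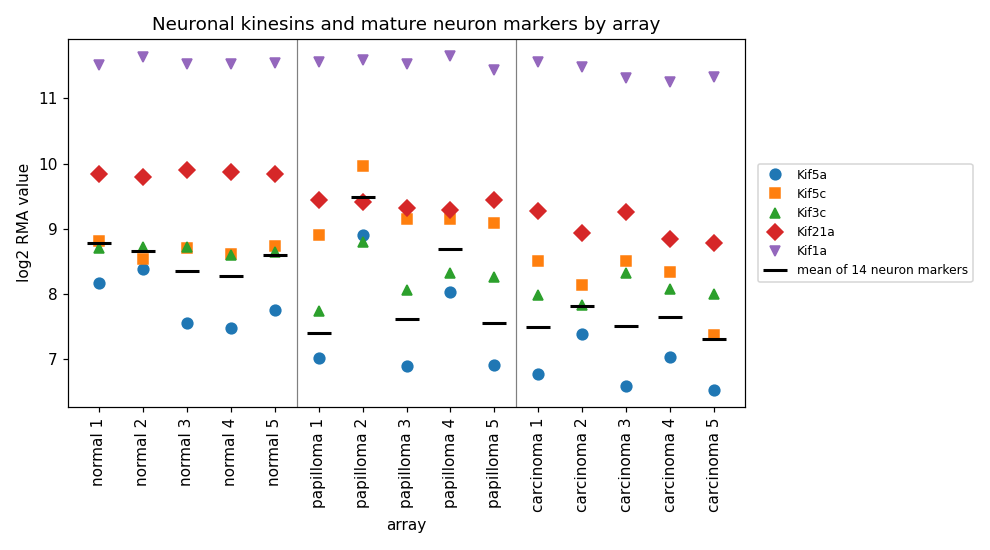
Log2 RMA values of 5 neuronal kinesins in each of the 15 arrays, with a black bar for the mean of 14 neuron markers. Kif5a, Kif5c and Kif3c are highest among papillomas in array 2, where the marker mean is 9.49, while Kif1a stays above 11 in every array.

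None of the 11 general cargo carriers and other members rose. In carcinomas 6 fell, with a median of -0.41, in papillomas 3 fell, with a median of -0.14, and 3 were lower in carcinomas than in papillomas. Beside these counts, 19.2%, 16.3% and 5.17% of all genes were lower. Markers of other tissues moved too: of 10 pituitary and meninges markers 9 fell in each tumour, with medians of -2.00 in carcinomas and -1.94 in papillomas, and their mean was 9.07 to 9.67 in normal arrays, 7.29 to 7.89 in papillomas and 7.49 to 7.89 in carcinomas. The remaining marker of that list, Crabp2, rose in carcinomas (2.10). Of 7 oligodendrocyte markers 5 fell in carcinomas and 2 in papillomas. Of 8 endothelial markers 4 rose in each tumour, beside 18.7% and 17% of all genes, and 1, Cldn5, fell in papillomas (-0.70). Of 8 macrophage markers Cd68 alone was called against normal tissue, higher in carcinomas (1.47). The part of these tissues in the falls of this and the other kinesin lists was not tested. Kif1c, a carrier of vesicles and mRNA, read 10.90, 10.90, 10.92, 10.91 and 10.76 in normal arrays, 10.17, 10.19, 10.14, 9.94 and 10.11 in papillomas and 10.06, 9.88, 10.12, 9.85 and 10.07 in carcinomas. Both tumours lay well under the normal arrays and overlapped each other, with differences of -0.88 (SE 0.07, limma adjusted p = 1.08e-07) and -0.77 (SE 0.07, adjusted p = 5.66e-07). Kif1b, which carries mitochondria and vesicles, differed by -0.72 (adjusted p = 8.99e-06) in carcinomas and -0.46 (adjusted p = 0.000877) in papillomas. Kif5b, the ubiquitous heavy chain of conventional kinesin, differed by -0.55 (adjusted p = 1.21e-05) and -0.51 (adjusted p = 3.26e-05), and a second, dim probe set of it gave -0.47 in carcinomas.

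A further group, Kif13a, Kif13b and Kifc3, was lower in carcinomas than in both other groups and was not called in papillomas. Kif13a, which moves endosomes and melanosome cargo, read 9.47, 9.55, 9.60, 9.62 and 9.66 in normal arrays, 9.34, 9.28, 9.27, 9.15 and 9.28 in papillomas and 9.13, 8.75, 8.92, 8.23 and 8.61 in carcinomas. The 3 groups did not overlap, although the papilloma difference of -0.32 was not called (limma adjusted p = 0.0611), and it passed under 7 alternative settings. Carcinomas differed by -0.86 (SE 0.12, adjusted p = 3.8e-05) from normal tissue and by -0.54 (SE 0.12, adjusted p = 0.0101) from papillomas, the latter not called when only those 2 groups were fitted (adjusted p = 0.0512). Kif13b differed by -0.41 and -0.31, and Kifc3, a motor of epithelial cell junctions, by -0.64 and -0.47. The tumour difference of Kifc3 (adjusted p = 0.0122) was not called when only those groups were fitted (adjusted p = 0.0606) or without papillomas 2 and 4 (adjusted p = 0.0517). Kif2a, a depolymerase that works outside and inside mitosis, differed by 0.13 in carcinomas and -0.06 in papillomas and was not called. Without carcinoma 4 it was called, at 0.27 against normal tissue (limma adjusted p = 0.00909) and 0.33 against papillomas (adjusted p = 0.00849). Kif12, Kif16b, Kif26a and Kif26b were not called either, with differences from -0.26 to 0.10. When each autosome's median shift was removed from the carcinomas, Kif26a stood higher, by 0.24 against normal tissue (limma adjusted p = 0.00878) and 0.23 against papillomas (adjusted p = 0.0362). The carcinoma difference of Kif26b was called lower under 6 settings, among them the replicate block (-0.26, adjusted p = 0.0197), and that of Kif16b without carcinoma 5 (-0.28, adjusted p = 0.0335).

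**Figure D5:**
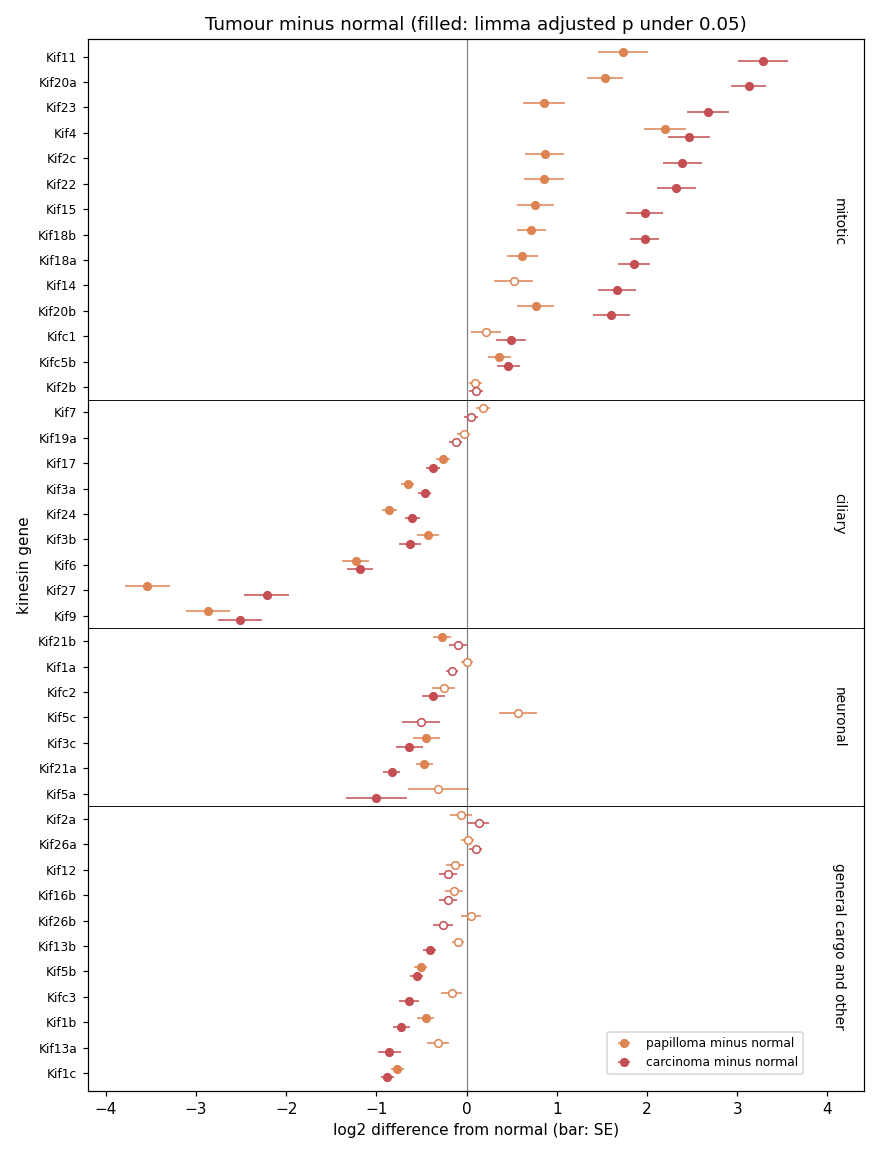
Log2 difference of papillomas (orange) and carcinomas (red) from normal tissue for the 41 kinesin genes, with bars for the SE and filled points for limma adjusted p under 0.05. Filled points right of 0 occur in the mitotic block alone, and in the other blocks every filled point lies left of 0.

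For the adaptors of cargo kinesins and for dynein the counts stand beside the shares of all genes, 18.7% higher and 19.2% lower in carcinomas and 17% higher and 16.3% lower in papillomas. Of 25 adaptors and light chains measured, 9 fell and none rose in carcinomas, with a median of -0.32. In papillomas 4 fell (a share like that of all genes), with a median of -0.09. Between the tumours 2 were lower in carcinomas, a share not far from the 5.17% of all genes lower there. Dlg4, a synaptic scaffold, had the largest differences, -1.38 in carcinomas and -1.20 in papillomas. Kifbp, which binds and blocks several kinesins, differed by -0.58 (limma adjusted p = 0.000177) in carcinomas and -0.39 in papillomas. Of 20 subunits and regulators of cytoplasmic dynein, the motor towards the minus end, 6 fell and 3 rose in carcinomas, with a median of -0.14, and 5 fell and 3 rose in papillomas, with a median of -0.04. Dctn6, a dynactin subunit, differed by -0.76 and -0.37, while Nde1, a dynein regulator with a role in neural progenitors, rose by 0.39 and 0.69.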

How the data were processed

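Total RNA of 15 mouse tissue samples (5 normal choroid plexus, 5 papillomas, 5 carcinomas) was hybridised to Affymetrix whole-transcript arrays. The deposited values are log2 RMA values per probe set, made with Affymetrix Expression Console per the submitters' processing notes, which give no version. RMA equalises the arrays' intensity distributions, so it removes a global change. Small differences of dim probe sets are compressed in such values. No source used here names the genome build of the probe annotation.

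Of 41345 probe sets, 23521 had 1 symbol, 1814 several and 15820 none, beside 190 controls. The set with the highest mean stood for a gene (22180 genes). limma 3.58.1 in R 4.3.3 fitted the group alone to all arrays (12 residual and 3.35 prior degrees of freedom, no trend). The p-values are two-sided, adjusted by Benjamini-Hochberg over all genes, threshold 0.05. SE is the moderated standard error. The procedure was tested on simulated data. Arrays have no depth; their number limits precision.

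Any kinesin gene could be named. Of the partner lists, the text names genes with the largest called differences, plus Cenpe, Racgap1, Kifap3 and Mki67. The members and lists were chosen with earlier results of these data known. The replicate numbers of the titles did not pair arrays (closing section). Further alternatives covered normalization, dim genes, probe sets, weights and arrays left out. Trp53 was not analysed here.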

Additional observations from a re-analysis of the deposited data

Results flagged for a closer look

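In 123 tests of a group of 5 arrays (41 kinesin genes in 3 groups), 6 held an array far from the other 4, where the gap to the nearest array exceeded 0.71 of the group's range. Chance alone flags about 1 in 20 groups. Of the 6, 4 were in papilloma 2, the array with the highest neuron marker mean. In that array Kif5c read 9.96 against 8.90 to 9.16 in the other papillomas, Kifc2 read 8.22 against 7.60 to 7.77, Kif1b read 10.96 against 10.63 to 10.67, and Kif15, in the other direction, read 6.09 against 6.61 to 6.73. Kif19a read 7.59 in papilloma 4 against 7.41 to 7.44 in the other papillomas. Kif1c read 10.76 in normal array 5 against 10.90 to 10.92 in the other normal arrays.

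A probe set paired with both Kif3c and 1110002L01Rik, which entered no comparison above, had a papilloma mean of 10.05, above the 9.47 to 9.61 of the normal arrays. The probe set paired with Kif3c alone was lower in papillomas than in normal tissue. Which of the paired genes gives that signal was not tested.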

How the results depend on the processing

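Of 123 tests (41 genes in 3 comparisons), 70 passed; 57 of these passed under all settings in which the gene was tested, 13 were lost under at least 1, and none changed sign. Of the 53 others, 20 passed under at least 1. With 1 array left out, the kinesin genes called were 12 to 13 higher and 15 to 18 lower in carcinomas, 10 to 13 higher and 11 to 14 lower in papillomas, and 11 to 13 higher and 5 to 6 lower in carcinomas against papillomas. The count of 5 lower between the tumours was 2 when only those groups were fitted and 3 without papillomas 2 and 4. Over all genes that comparison called 2530, against 1329 and 1587 under these settings. Under the replicate block 13 rose and 18 fell in carcinomas, 10 rose and 13 fell in papillomas, and 11 were higher and 6 lower between the tumours. It ended the papilloma call of Kifc5b (adjusted p = 0.0881, limma). Same-numbered arrays did not deviate together: 2 of 15 correlations of their deviations exceeded 0.1 (range -0.0962 to 0.136). The filter on dim genes left out Kif2b, Kifc1 and Kif20b. Kif27 was the gene whose called values moved over 1.5 times: with its probe sets averaged, -1.23 in carcinomas, -1.96 in papillomas and 0.73 between them.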
